A study of Homo sapiens with 6 samples.

Results

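The genes described here are 9 hemidesmosome and laminin-332 genes (COL17A1, DST, PLEC, ITGA6, ITGB4, ITGA3, CD151, LAMA3 and LAMB3), picked by gene symbol from the 58884 rows of the deposited RNA-seq table. Each symbol had 1 row, and all 9 genes passed the filter on low values, a mean of at least 10 normalized counts over the 6 libraries. Libraries came from KYSE450, an esophageal squamous cell carcinoma (ESCC) cell line with wild-type NRF2 (n = 3), and from KEAP1null-KYSE450 (n = 3), a monoclonal derivative in which KEAP1 was disrupted by CRISPR-Cas9 with a guide against an early exon. Both lines were cultured untreated in RPMI1640 with serum and antibiotics. KEAP1 is the adaptor through which NRF2, a transcription factor of the oxidative stress response, is ubiquitinated and degraded. The comparison addresses what differs where KEAP1 was disrupted in a line with wild-type NRF2. These RNA data do not measure NRF2 protein, and the study notes that KEAP1 has reported partners other than NRF2. Because the KEAP1null line is 1 clone, an effect of KEAP1 loss and a property of that clone cannot be told apart.

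Hemidesmosomes anchor basal epithelial cells to the basement membrane. In the membrane, the integrin α6β4 (ITGA6, ITGB4) and the transmembrane collagen XVII (COL17A1) bind laminin-332 outside the cell, and inside the cell the plakins plectin (PLEC) and dystonin (DST, whose epithelial form is BP230) tie them to keratin filaments. Laminin-332, which basal cells secrete, contains the α3 and β3 chains (LAMA3, LAMB3), and integrin α3β1 (ITGA3, ITGB1), held with the tetraspanin CD151, is its other main receptor. These structures mark the basal layer of stratified squamous epithelia such as that of the esophagus.

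KEAP1 itself had 5760, 5226 and 5146 normalized counts in KYSE450 and 5737, 4906 and 5317 in KEAP1null-KYSE450 (log2 fold change -0.02, adjusted p = 0.900). A gene-level count does not show whether the transcripts carry the edit, so it does not check the labels. NFE2L2, which encodes NRF2, had 11010 ± 341 normalized counts in KYSE450 and 7947.5 ± 144 in KEAP1null-KYSE450 (SD, n = 3 each). Its log2 fold change was -0.47 (adjusted p = 6.345e-04). Summed normalized counts were between 54829313 and 57380170 per library. Pearson correlations over 16701 genes were 0.984 to 0.989 within a line and 0.924 to 0.936 across lines. All 10 squamous markers passed the filter, KRT5 and TP63 among them. The fibroblast marker COL1A1 and the endothelial marker CDH5 passed it too, so passing it does not by itself show the cell type. The squamous markers summed to 383327 to 507250 normalized counts in KYSE450 and 598533 to 747855 in KEAP1null-KYSE450, a sum that KRT5 dominates. Without KRT5 the other 9 markers summed to 208951 to 256893 and 78986 to 99178. By adjusted p, 7 of the 10 markers were lower and 3 (KRT5, DSG3 and DSC3) higher, against 25.5% and 24.3% of all genes tested. By the thresholds stated with the comparison, KRT17 (log2 fold change -4.85), KRT6A (-4.70) and KRT14 fell and KRT5 rose. Those thresholds were passed by 5.98% of all genes as lower and by 12.2% as higher. The summed level of 6 fibroblast markers, nearly all of it COL1A1, was 622 to 853 and 349 to 436, that of 3 leukocyte markers 1.86 to 9.10 and 1.85 to 5.10, that of 3 endothelial markers 57.8 to 73.8 and 41.5 to 68.6, and that of 3 intestinal or glandular markers 10.1 to 13.985 and 8.30 to 10.2. Of the endothelial markers, CDH5 fell (log2 fold change -2.77) from a level of 10.7 to 28.9 normalized counts. In every library the fibroblast markers COL1A2 and DCN were at or under 3 reads, and the endothelial marker PECAM1 and the intestinal marker CDX2 were at 0.

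The starts of COL17A1, LAMA3 and LAMB3 are shown because these 3 genes had the largest decreases of the set in KEAP1null-KYSE450 and because a start of each laminin gene holds the letters of an AP-1 motif (TGANTCA, bound by FOS and JUN family factors). Each run is the 150 bases upstream of a RefSeq start on GRCh38.p14, 5′ to 3′ on the strand of the gene, and capitals mark matches to that motif on either strand.
COL17A1, chr10:104085881-104086030, minus strand: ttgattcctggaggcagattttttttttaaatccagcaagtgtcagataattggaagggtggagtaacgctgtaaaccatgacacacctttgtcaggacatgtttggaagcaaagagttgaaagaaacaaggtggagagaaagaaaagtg
LAMA3, chr18:23872870-23873019, plus strand: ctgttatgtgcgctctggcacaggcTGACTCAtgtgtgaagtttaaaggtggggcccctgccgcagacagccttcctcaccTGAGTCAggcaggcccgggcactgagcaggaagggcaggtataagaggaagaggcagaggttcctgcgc
LAMB3, chr1:209651375-209651524, minus strand: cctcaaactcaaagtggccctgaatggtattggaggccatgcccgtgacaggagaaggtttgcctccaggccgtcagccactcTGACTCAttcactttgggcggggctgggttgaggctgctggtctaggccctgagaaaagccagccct

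The COL17A1 run ends at the start of the gene, while the LAMA3 and LAMB3 runs lie before starts inside the annotated genes, and the last 20 bases of the LAMB3 run are in an annotated exon. LAMA3 had an AP-1 match beginning 125 bases and another beginning 69 bases upstream of the start, and LAMB3 had one 67 bases upstream. The LAMB3 start was chosen for that match, since the windows of the other 2 LAMB3 starts had none. Such a match was found in 7.71% of 35116 RefSeq windows that reach from 250 bases before to 50 bases after a start. Windows were at hand for 5 of the 9 genes (COL17A1, DST, ITGA6, LAMA3 and LAMB3; 10 windows), and AP-1 matches were in 3 of the 10. The third was at a DST start, TGAGTCA beginning at base 26 after the start, where it overlapped the only match to an antioxidant response element, the motif bound by NRF2 (TGACNNNGC, in 13.3% of all windows). The GC box GGGCGG, bound by SP family factors, was in 7 of the 10 windows and in 44.95% of all windows, and COL17A1 had none of the 3 motifs. These matches describe the letters in the windows and were not tested for binding.

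Most genes of the hemidesmosome and of laminin-332 were lower in KEAP1null-KYSE450 than in KYSE450. A gene was called where the adjusted p was under 0.05 and the log2 fold change was 1 or more in size (limma on log2(normalized count + 1), Benjamini-Hochberg over all 16701 genes). By this rule 6 of the 9 genes fell (COL17A1, LAMA3, LAMB3, ITGA3, ITGA6 and CD151), against 5.98% of all genes tested. No gene of the set rose, against 12.2% of all genes. By adjusted p alone, 6 were lower and 1 (DST) was higher, against 25.5% and 24.3% of all genes. The same 6 genes had every KEAP1null-KYSE450 library below every KYSE450 library, which held for 29.3% of all genes. The median log2 fold change was -1.09 over the 9 genes and 0.004 over all genes tested. The 9 genes and all gene lists below were chosen with earlier results of these data known. Their contrasts with all genes are therefore descriptive and are not independent evidence. Nothing in the labels says that the libraries of a line came from separate cultures, so the p-values measure only the spread between these libraries. In bulk RNA, fewer cells of a type and less RNA per cell cannot be told apart.

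**Figure D1:**
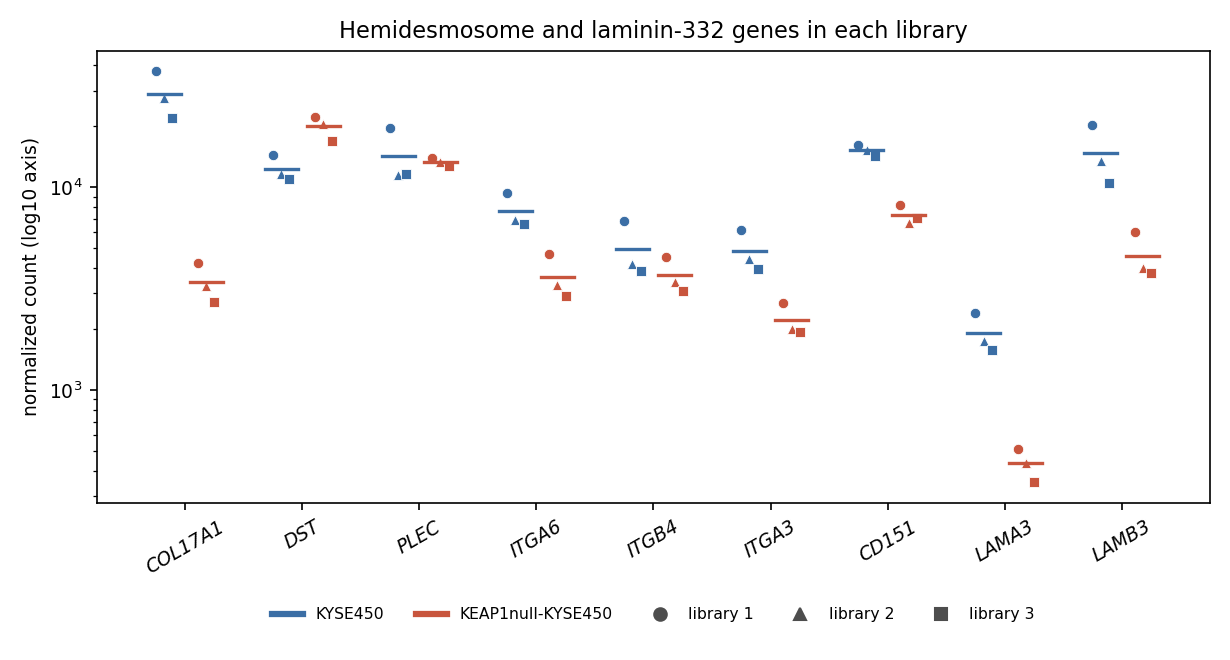
Normalized counts (log10 axis) of the 9 genes in 3 KYSE450 and 3 KEAP1null-KYSE450 libraries; each point is 1 library and each bar the mean of a line. The lines are separated for all genes except PLEC and ITGB4, with DST the one gene higher in KEAP1null-KYSE450.

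COL17A1 (ENSG00000065618; chromosome 10, 104031286 to 104085880, minus strand, hg38), the transmembrane collagen of the hemidesmosome, showed the largest change of the set. The KYSE450 libraries held 37436, 27511 and 21938 normalized counts of it and the KEAP1null-KYSE450 libraries 4238, 3257 and 2711. The highest KEAP1null-KYSE450 library was far below the lowest KYSE450 library. Its mean fell 8.51-fold, from 28962 ± 7850 to 3402 ± 774 (SD, n = 3 each), which is -3.08 ± 0.18 on the log2 scale (SE; adjusted p = 4.88e-08). This call held under all 17 other settings, with log2 fold changes of -3.26 to -2.88.

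DST and PLEC, the plakins of the set, which link the membrane components to keratin, did not follow COL17A1. DST (ENSG00000151914; chromosome 6, 56457987 to 56954830, minus strand) had 14479, 11682 and 10986 normalized counts in KYSE450 and 22319, 20671 and 16998 in KEAP1null-KYSE450. The groups did not overlap, and DST was 1.61-fold higher in KEAP1null-KYSE450 (log2 fold change 0.69 ± 0.13, adjusted p = 7.01e-04), short of the fold cutoff. PLEC (ENSG00000178209; chromosome 8, 143915153 to 143976734, minus strand) had 19697, 11472 and 11668 in KYSE450 and 13953, 13311 and 12788 in KEAP1null-KYSE450. Here the groups overlapped, since 1 KYSE450 library was above and the others below all KEAP1null-KYSE450 libraries (log2 fold change -0.05 ± 0.17, adjusted p = 0.825). Without KYSE450 library 1 the sign turned (0.21, adjusted p = 0.068). DST has 41 annotated transcripts, PLEC 15 and LAMA3 15, and a gene-level count does not separate the epithelial forms from the others.

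Among the laminin-binding integrins, the α chains fell about 2-fold and β4 did not pass the test. ITGA6 (ENSG00000091409; chromosome 2, 172427354 to 172506459, plus strand), the α6 chain that pairs with β4 in hemidesmosomes, had 9384, 6893 and 6638 normalized counts in KYSE450 and 4674, 3294 and 2900 in KEAP1null-KYSE450. All KEAP1null-KYSE450 libraries were below all KYSE450 libraries, and the mean fell 2.11-fold (log2 fold change -1.09 ± 0.17, adjusted p = 1.99e-04). ITGB4 (ENSG00000132470; chromosome 17, 75721328 to 75757818, plus strand) had 6861, 4169 and 3864 in KYSE450 and 4556, 3398 and 3097 in KEAP1null-KYSE450. The first KEAP1null-KYSE450 library lay inside the KYSE450 range (log2 fold change -0.40 ± 0.19, adjusted p = 0.103, 95% interval -0.82 to 0.02). This value depended on single libraries, being -0.14 (adjusted p = 0.396) without KYSE450 library 1, -0.56 (adjusted p = 0.030) without KYSE450 library 3 and -0.56 (adjusted p = 0.038) without KEAP1null-KYSE450 library 1.

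ITGA3 (ENSG00000005884; chromosome 17, 50055968 to 50090481, plus strand), the α3 chain of the other laminin-332 receptor, had 6137, 4437 and 3968 normalized counts in KYSE450 and 2683, 2003 and 1942 in KEAP1null-KYSE450. The groups were apart, with a 2.19-fold decrease of the mean (log2 fold change -1.12 ± 0.16, adjusted p = 1.06e-04). CD151 (ENSG00000177697; chromosome 11, 832887 to 839831, plus strand), the tetraspanin of both receptors, had 16291, 15304 and 14370 in KYSE450 and 8223, 6701 and 7033 in KEAP1null-KYSE450. The groups did not overlap, and the mean fell 2.09-fold with the smallest standard error of the 9 genes (log2 fold change -1.07 ± 0.10, adjusted p = 3.78e-06).

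These integrin and CD151 values lie close to the fold cutoff of 1, and the call depended on it. Under quantile normalization the log2 fold changes were -0.92 for ITGA6, -0.997 for ITGA3 and -0.88 for CD151, all with adjusted p under 0.05 but short of the cutoff. The ITGA6 call was also lost without KYSE450 library 1 (-0.93), without KEAP1null-KYSE450 library 3 (-0.94) and with edgeR on recovered reads (-0.97), and the ITGA3 call without KYSE450 library 1 (-0.94). CD151 shares 257 bases, 6.60% of its exon sequence, with POLR2L on the opposite strand, whose counts were 7385 ± 857 and 6729 ± 622 (SD, n = 3 each; log2 fold change -0.13, adjusted p = 0.334). The sources used here do not state whether reads were assigned by strand, so reads from the shared bases cannot be told apart.

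Both laminin-332 chains of the set fell. LAMA3 (ENSG00000053747; chromosome 18, 23689453 to 23956222, plus strand), the α3 chain that integrins bind, had 2402, 1753 and 1574 normalized counts in KYSE450 and 514, 438 and 351 in KEAP1null-KYSE450. The groups were far apart, and the mean fell 4.395-fold (log2 fold change -2.13 ± 0.17, adjusted p = 9.03e-07), a call that held under all 17 other settings. LAMB3 (ENSG00000196878; chromosome 1, 209614870 to 209652425, minus strand), the β3 chain, had 20377, 13513 and 10560 in KYSE450 and 6045, 4004 and 3775 in KEAP1null-KYSE450. The groups did not overlap, and the mean fell 3.22-fold (log2 fold change -1.66 ± 0.21, adjusted p = 4.62e-05). LAMB3 did not pass limma's stricter test that the change exceeds 2-fold (adjusted p = 0.067).

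Levels of different genes are compared only per kilobase of the main annotated transcript. In KYSE450 the order was CD151 (9917 ± 622 normalized counts per kb), COL17A1 (5161 ± 1399), LAMB3 (3691 ± 1255), ITGA6 (1313 ± 261), ITGA3 (992 ± 233), PLEC (965 ± 317), ITGB4 (842 ± 280), DST (501 ± 75) and LAMA3 (179 ± 41; SD, n = 3 each). The ranges of COL17A1 and LAMB3 overlapped, as did those of each pair of neighbours from ITGA6 to ITGB4. In KEAP1null-KYSE450 CD151 (4737 ± 518) was highest and LAMA3 (40.8 ± 7.7) lowest. Between them lay LAMB3 (1148 ± 311), PLEC (902 ± 39), DST (809 ± 110), ITGB4 (625 ± 131), ITGA6 (623 ± 160), COL17A1 (606 ± 138) and ITGA3 (452 ± 84), each overlapping the next. By this length COL17A1 went from rank 2 to rank 7 of the 9 genes, and its level per kb came to lie within the ranges of ITGA6 and ITGB4. The ranks depend on the length used, which was 24709 bases for DST and 10651 for LAMA3. A shorter main form would give a higher level per kb. Per kb of all annotated exons, COL17A1 (4144 ± 1123) was above CD151 (3935 ± 247) in KYSE450, with overlapping spreads, and was of rank 6 in KEAP1null-KYSE450 (487 ± 111), where CD151 (1880 ± 206) was highest.

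Genes whose products share a complex were then compared as ratios within a library, which do not depend on how that library was scaled. The COL17A1 to ITGB4 ratio of normalized counts was 5.46, 6.60 and 5.68 in KYSE450 and 0.930, 0.959 and 0.875 in KEAP1null-KYSE450, a 6.40-fold lower ratio. The ITGA6 to ITGB4 ratio was 1.37, 1.65 and 1.72 in KYSE450 and 1.03, 0.969 and 0.936 in KEAP1null-KYSE450. Both ratios were separated between the lines, so COL17A1 and ITGA6 were lower relative to ITGB4 in every KEAP1null-KYSE450 library than in any KYSE450 library.

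For laminin-332, the LAMA3 to LAMB3 ratio went from 0.132 ± 0.016 to 0.0958 ± 0.0125 (SD, n = 3 each). LAMA3 was thus lower relative to LAMB3 in every KEAP1null-KYSE450 library. DST to PLEC went the other way, from 0.898 ± 0.146 to 1.49 ± 0.14, and ITGA3 to ITGB1 went from 0.493 ± 0.085 to 0.401 ± 0.013 (SD, n = 3 each). Without KYSE450 library 1 the log2 difference of the latter ratio moved from -0.28 to -0.15.

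The CD151 to ITGA3 ratio was 2.65, 3.45 and 3.62 in KYSE450 and 3.06, 3.35 and 3.62 in KEAP1null-KYSE450, and overlapped (log2 difference 0.05, exact two-sided permutation p = 0.900). The other 5 of the 6 ratios did not overlap between the lines, each with an exact two-sided permutation p = 0.1, the smallest that 3 libraries against 3 can give, and 0.12 after Benjamini-Hochberg adjustment over the 6 ratios. This test therefore cannot go below 0.05 here.

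**Figure D2:**
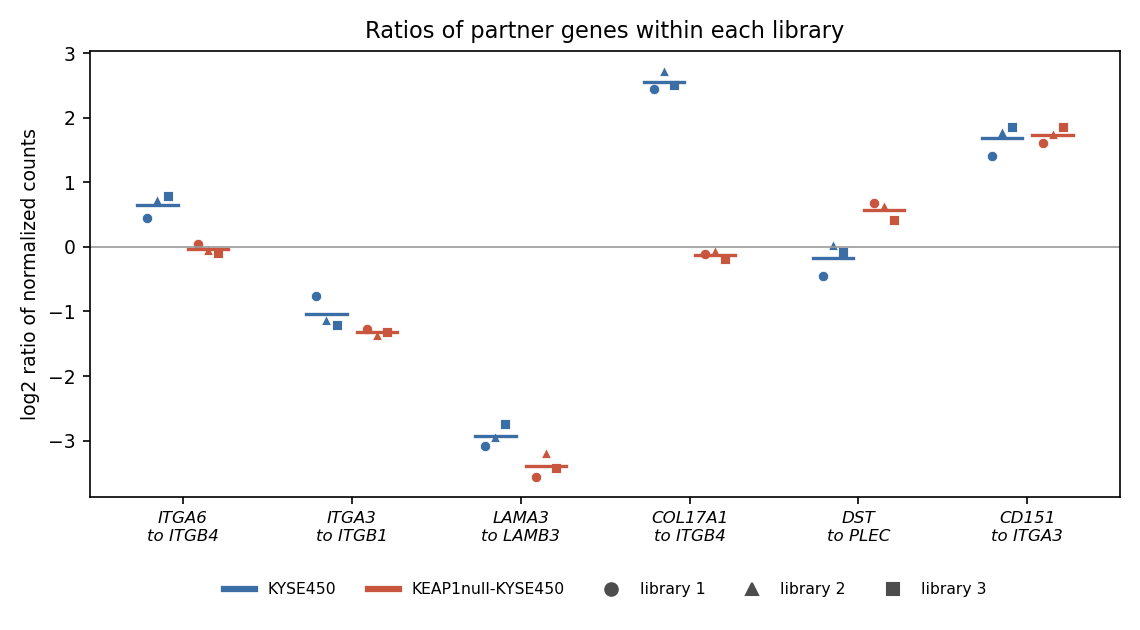
Log2 ratios of normalized counts of partner genes within each library (points; bars are the mean of a line) for 3 KYSE450 and 3 KEAP1null-KYSE450 libraries. COL17A1 to ITGB4 differs most between the lines (log2 difference of -2.68), and CD151 to ITGA3 overlaps.

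The first library of each line stood apart for these genes. It was the highest of its line for all 9 genes in both lines, a pattern found in 27.0% of all genes tested. The median log2 ratio of library 1 to the mean of the others was 0.55 over the 9 genes in KYSE450 and 0.44 in KEAP1null-KYSE450, against 0.03 over all genes in each line. Among genes whose mean reached 100, the median of that ratio in KYSE450 was -0.10 for the 4107 genes lowest in GC content and 0.19 for the 4107 highest, and -0.10 and 0.17 for the 4112 genes with the shortest and the 4105 with the longest transcripts. In KEAP1null-KYSE450 the values were 0.01 and 0.07 by GC content and -0.08 and 0.13 by length. Of the 9 genes, DST and ITGA6 were in the lowest GC group, with ratios of 0.35 and 0.47 in KYSE450. CD151 was in the shortest group, with ratios of 0.13 in KYSE450 and 0.26 in KEAP1null-KYSE450. By GC content LAMA3 was in the middle group and the rest in the highest. By length LAMB3 was in the middle group and the rest in the longest. Whether GC content or length plays a part was not tested. The part of the first libraries in the results was tested only by leaving them out. Without both first libraries, an alternative chosen after seeing the data, the same 6 genes were called lower, ITGB4 had a log2 fold change of -0.31 (adjusted p = 0.0057), and PLEC one of 0.17 (adjusted p = 0.044).

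**Figure D3:**
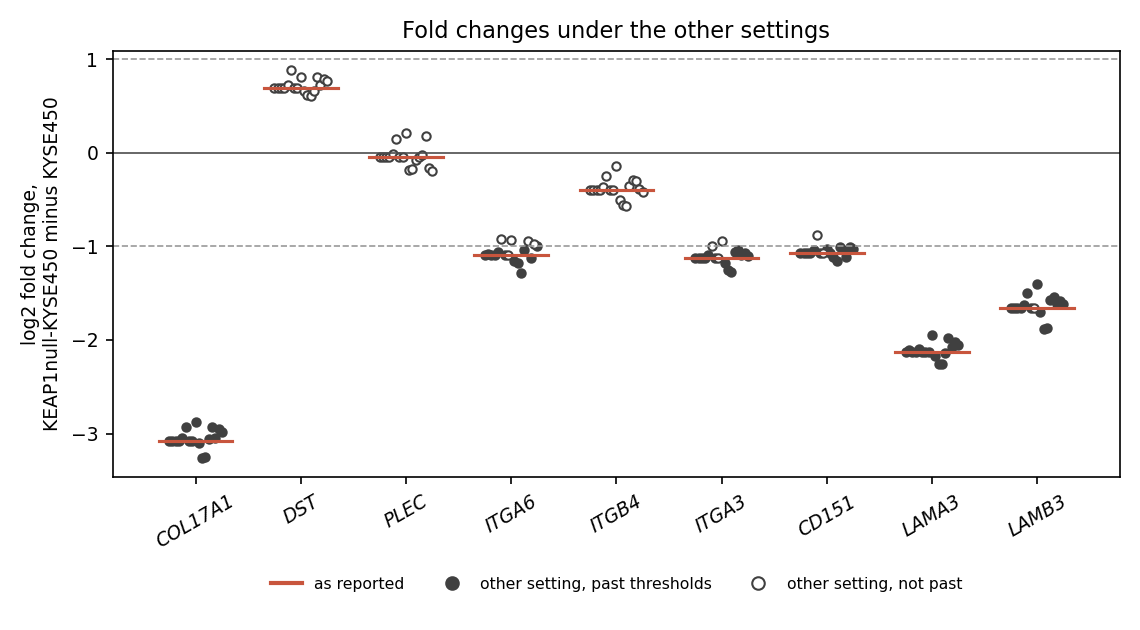
Log2 fold changes (KEAP1null-KYSE450 minus KYSE450) of the 9 genes as reported (red bars) and under 17 other settings (points, filled where past both thresholds); dashed lines mark the fold cutoff. COL17A1 lies between -3.26 and -2.88 throughout, whereas ITGA6, ITGA3 and CD151 lie at the cutoff and PLEC lies on both sides of 0.

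Other genes of basement membrane adhesion were counted by the same thresholds, which 5.98% of all genes passed as lower and 12.2% as higher, with 25.5% lower and 24.3% higher by adjusted p alone. Of 15 further laminin chains and basement membrane matrix genes, 14 could be tested (NID2 was at 0 in every library), and 5 fell while 2 rose, with a median log2 fold change of -0.33. The genes that fell were LAMC1 (-1.83), a laminin γ chain, the collagen IV chains COL4A6 (-1.49), COL4A1 (-1.44) and COL4A2 (-1.38), and NID1 (-1.05), which encodes the linker of laminin and collagen IV. The genes that rose were FREM2 (1.54), of the Fraser complex, and COL7A1 (1.03), the collagen of the anchoring fibrils that attach laminin-332 to the dermis or lamina propria. NID1 and COL7A1 lie close to the fold cutoff. COL7A1 had 4289, 3616 and 2743 normalized counts in KYSE450 and 6375, 7554 and 7565 in KEAP1null-KYSE450, so it was higher in every KEAP1null-KYSE450 library while LAMA3 and LAMB3 were lower.

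Among LAMA3, LAMB3, LAMA5, LAMB1, LAMB2 and LAMC1, the level per kb of LAMA3 was the lowest in KEAP1null-KYSE450. LAMA5, the α chain of laminin-511, had 379 ± 16 normalized counts per kb there, against 40.8 ± 7.7 for LAMA3 (SD, n = 3 each). In KYSE450 the values were 497 ± 91 for LAMA5 and 179 ± 41 for LAMA3, which overlapped LAMB2 (177 ± 39). LAMC1 went from 1569 ± 384 to 440 ± 88 per kb. LAMB1 did not pass the test (log2 fold change 0.32, adjusted p = 0.124), and LAMB2 was higher by adjusted p alone (0.79, adjusted p = 0.0023).

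Of 6 membrane partners and other laminin receptors, none passed both thresholds, and 5 were lower by adjusted p alone, with a median log2 fold change of -0.76. ITGB1, the partner of ITGA3, had 10399, 9726 and 9188 normalized counts in KYSE450 and 6470, 5142 and 4862 in KEAP1null-KYSE450 (log2 fold change -0.84, adjusted p = 6.75e-05). Of 9 cytoplasmic linkers and basal keratins, 2 fell and 1 rose (median -0.25). KRT14, the type I keratin of basal cells, fell by 6.09 on the log2 scale and EPPK1, the plakin epiplakin, by 4.87. KRT5, the type II keratin that pairs with KRT14, rose (1.46), with 519548 to 648677 normalized counts in KEAP1null-KYSE450 against 174377 to 250359 in KYSE450. Of 6 enzymes that process or shed these proteins, 5 could be tested and none passed both thresholds (median -0.27).

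**Figure D4:**
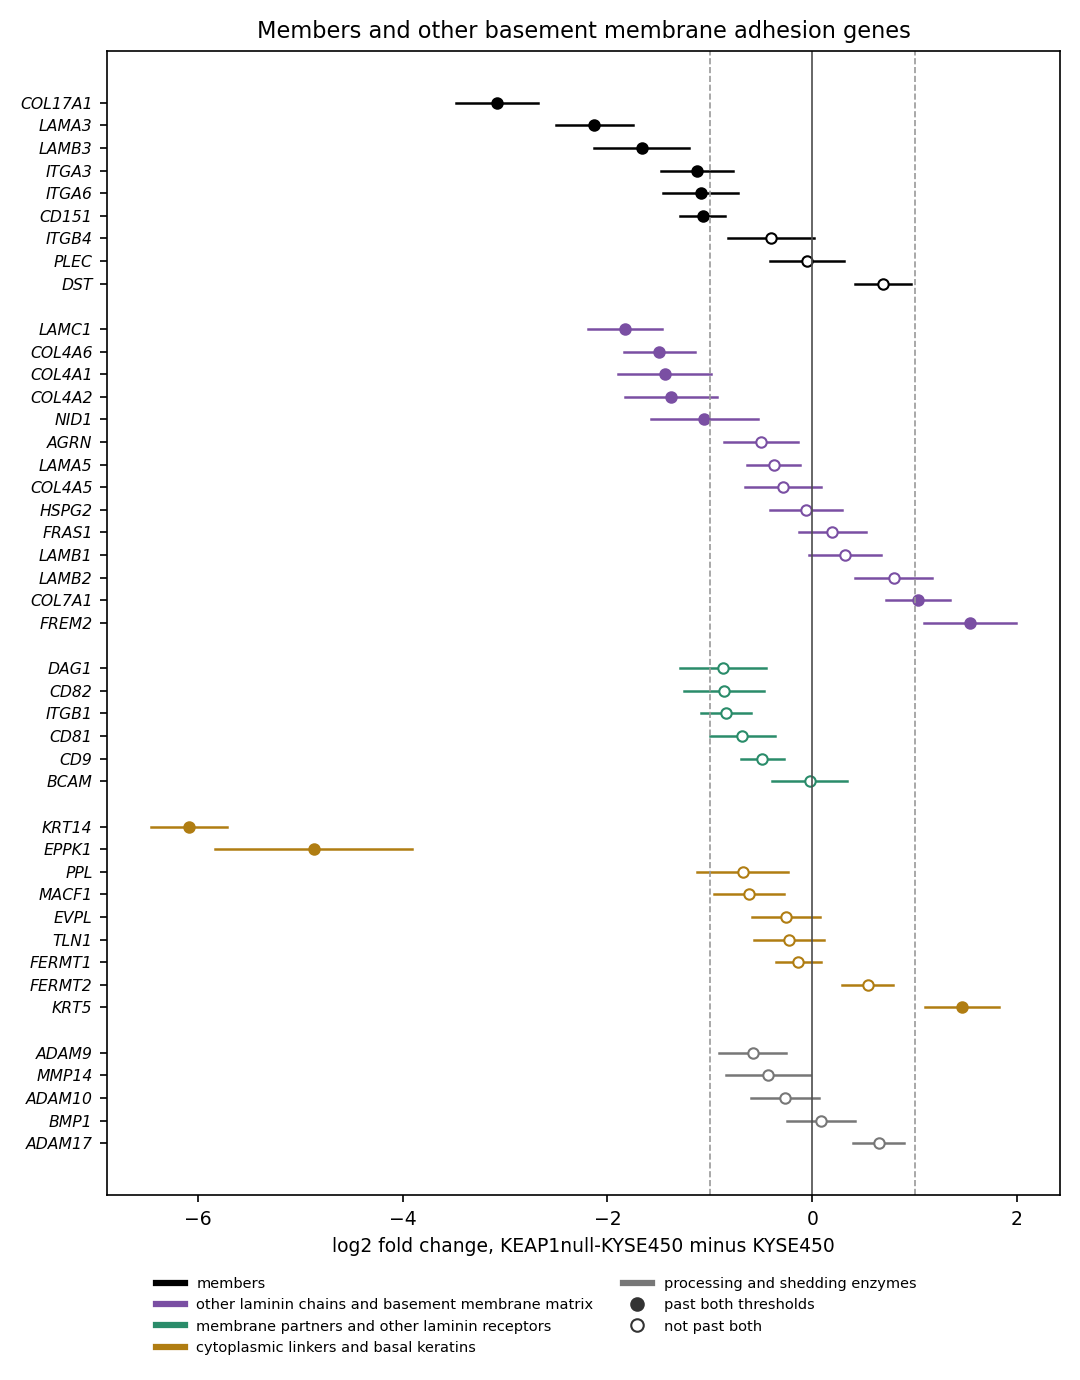
Log2 fold changes (KEAP1null-KYSE450 minus KYSE450, with 95% intervals) of the 9 genes and of 34 other basement membrane adhesion genes in 4 lists; filled points passed both thresholds, and dashed lines mark the fold cutoff. Membrane partners and processing enzymes lie inside the cutoff, while KRT14 and EPPK1 lie furthest to the left.

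Cell to cell and other matrix junctions give a side by side reading. By the same thresholds, which 5.98% of all genes passed as lower and 12.2% as higher, 5 of 9 desmosome genes fell and none rose. The median log2 fold change of the 9 was -1.01. The 5 were PKP1 (log2 fold change -2.95), DSP (-1.69), PKP2 (-1.15), JUP (-1.13) and PKP3 (-1.01). PKP2, JUP and PKP3 lie close to the fold cutoff. All 5 encode cytoplasmic plaque proteins. Of the 4 cadherins of the list, described after their values were seen, DSC2 and DSC3 were higher by adjusted p alone (0.56 and 0.60), as was DSG3 (0.41), whose libraries overlapped between the lines, and DSG2 did not pass the test (-0.30, adjusted p = 0.092). Of 10 other matrix-binding integrins, 7 could be tested, 1 fell (ITGA5, the fibronectin receptor chain, by 1.96) and none rose, with a median of -0.26. These lists are described beside the 9 genes, and the difference between lists was not tested.

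The 3 genes whose profile over the 6 libraries was nearest to that of COL17A1, among 7757 genes whose mean reached 1000, were PKP1, DPYSL3 and MYADM. Their Euclidean distances, on centred log2 values, were 0.37, 0.39 and 0.40, and their log2 fold changes were -2.95, -2.99 and -3.20. PKP1 encodes the desmosomal plaque protein plakophilin 1.

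The genes were also compared with their chromosomal neighbours. For each gene, the 20 nearest genes on each side with a mean of at least 100 were taken. The median log2 fold change of the 40 neighbours was -0.05 for COL17A1, 0.18 for DST, -0.18 for PLEC, 0.15 for ITGA6, -0.18 for ITGB4, -0.13 for ITGA3, -0.36 for CD151, -0.001 for LAMA3 and -0.09 for LAMB3, against -0.08 over all 12321 such genes. COL17A1, ITGA6 and LAMA3 were lower than all 40 of their neighbours, LAMB3 was lower than 39, and ITGA3 and CD151 were lower than 36 and 35. The share of neighbours with a log2 fold change below 0 was 77.5% around CD151, 62.5% around LAMB3, 60% around ITGA3, 55% around COL17A1, 50% around LAMA3 and 40% around ITGA6. Around the genes not called, it was 75% for ITGB4, 60% for PLEC and 35% for DST. This share was not computed over all 12321 genes. DNA copy number was not measured, and its part in the results was not tested.

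**Figure D5:**
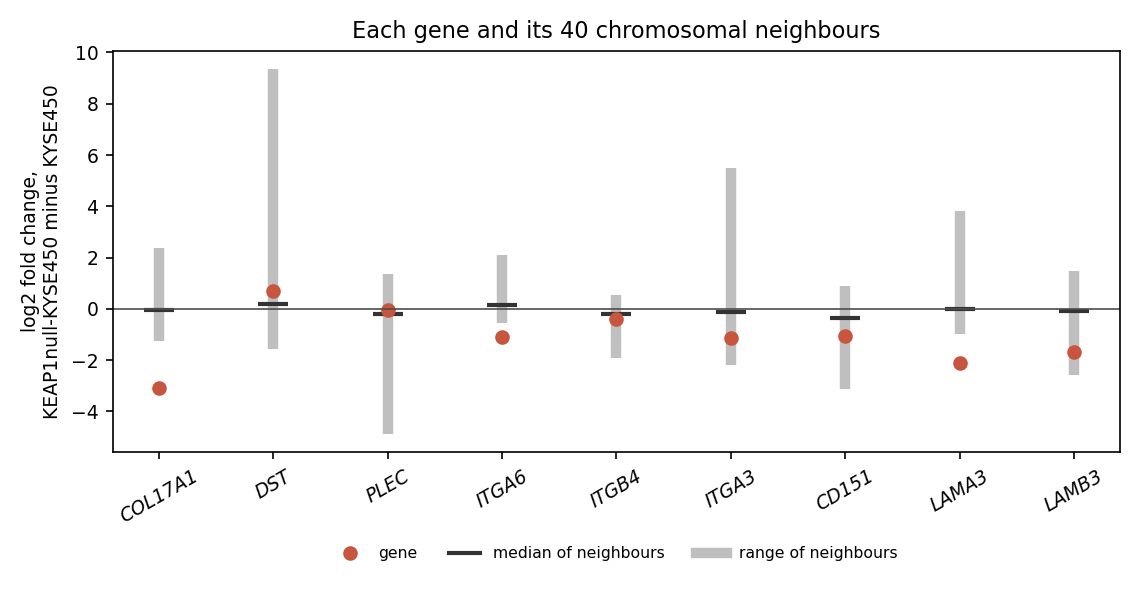
Log2 fold change (KEAP1null-KYSE450 minus KYSE450) of each gene (red points) with the median (black bars) and range (grey bars) of its 40 chromosomal neighbours. The points of COL17A1, ITGA6 and LAMA3 lie below the whole range of their neighbours, and all medians lie between -0.36 and 0.18.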

How the data were processed

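RNA-seq was performed on total RNA from KYSE450 and KEAP1null-KYSE450 cells, 3 libraries per line, with a NEBNext Ultra RNA kit. Per the labels and the study's methods, reads were trimmed with cutadapt 1.12, checked with FastQC 0.11.5, aligned to hg38 with STAR 2.6.90c and counted per gene with featureCounts 1.5.1. The deposited signal values are read counts per gene that the authors normalized across libraries, and they are not scaled to gene length. The study's methods name a RefSeq annotation while the table names Ensembl genes, so the gene models used for counting are unclear, and lengths and overlaps from gencode v44 may differ from them; 16630 of the 16701 identifiers tested were matched to it. The value of 1 read was estimated from the steps between low values, and 100% of values were whole within 0.1 reads in each library. Reads were recovered in 4 libraries (53027359 to 61543442 reads), where 3 reads correspond to 2.77 to 3.21 normalized counts. In KYSE450 library 2 and KEAP1null-KYSE450 library 3, 3 reads correspond to 3.03 normalized counts, and total reads were not derived. These limits cover counting error only.

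Genes with a mean of at least 10 were tested on log2(normalized count + 1) with limma 3.58.1 (lmFit, eBayes with trend, two-sided) in R 4.3.3 over all 6 libraries, with Benjamini-Hochberg adjustment over all genes. Fold changes are on that log2 scale, and folds of means are also given. The call rule took an adjusted p under 0.05 together with a log2 fold change of 1 or more in size. Ratios were tested with an exact permutation test. Recovered reads were tested with edgeR 4.0.16 (872 genes lower, 1826 higher) and DESeq2 1.42.0 (877 lower, 1623 higher) on the 2 such libraries per line. The limma step was tested on simulated data. Sequences come from RefSeq.

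The 9 genes and all gene lists were chosen with earlier results of these data known. Text names all 9 genes, list genes past both thresholds, partners in a ratio, KEAP1, NFE2L2, and the 3 profiles nearest to the gene with the largest change. POLR2L and further list genes (COL1A1, COL1A2, DCN, NID2, PECAM1, CDX2, TP63, LAMA5, LAMB1, LAMB2, DSG2, DSG3, DSC2 and DSC3) were named after their values were seen. One planned ratio and 1 list gene are not reported here.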

Additional observations from a re-analysis of the deposited data

How the results depend on the processing

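Of 309 recomputed values, 280 were labelled as kept. A fold change was kept if its direction and side of the thresholds stayed, and a ratio if it moved by less than the spread. A count was kept under a limited change, so 4 genes of the set called lower without KYSE450 library 1, in place of 6, were labelled as kept. Ratios per kb of exon were also among the 280, although length cancels in the log2 difference, so they could not change. No paired analysis was possible because the table's columns name the line only and carry no replicate number. No symbol of the set had several rows, so summing rows was not run. Leaving out 1 library leaves 2 in that line, whose spread is pooled with the other line.

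PLEC changed sign under quantile normalization (0.15), without KYSE450 library 1 (0.21) and without the first library of both lines (0.17, chosen after seeing the data), with a range of -0.20 to 0.21 over all 17 settings and -0.18 to 0.21 when leaving out each library. Quantile normalization left ITGA6 at -0.92, ITGA3 at -0.997 and CD151 at -0.88, and 3 genes of the set called lower. Against a fold change of 2 (treat), ITGA6 (-1.09), ITGA3 (-1.12), CD151 (-1.07) and LAMB3 (-1.66) lost their calls and 2 genes of the set were lower. That test called 395 genes lower and 626 higher of all genes and, among basement membrane adhesion genes, 3 lower and 0 higher. With no fold cutoff, 1 gene of the set was higher, 4251 genes were lower and 4060 higher of all genes, and 17 were lower and 6 higher of the basement membrane adhesion genes. A mean of at least 100 left 875 genes higher, with fewer genes tested. ITGA6 was -0.97 with edgeR. Leaving out each library gave -1.29 to -0.93 for ITGA6, -1.27 to -0.94 for ITGA3 and -0.0832 to 0.141 for the CD151 to ITGA3 log2 ratio difference, which was -0.0221 without both first libraries. Apart from quantile normalization and the recovered reads, which use 4 libraries, the cause was not tested. The median of all genes was 0.004 as deposited, 0.04 at equal totals and -0.02 after quantile normalization. Depth does not limit the 9 genes, which were above 3 reads in every library.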
